A study of Mus musculus with 74 samples.

Results

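The mice compared here share the nuclear genome of C57BL/6J (C) and differ in their mtDNA. CC is the wild-type strain, with C mtDNA, and the mitochondrial–nuclear exchange (MNX) strains CH and CF, made by pronuclear transfer between fertilized oocytes, carry the mtDNA of C3H/HeN (H) or FVB/NJ (F). Libraries of these genotypes were chosen by label from batches 2 and 3, which gave 34 of the 74 libraries of the series, 12 of CC, 10 of CH and 12 of CF. Small RNA from lungs of healthy adult females and males of 5 to 15 weeks was sequenced with a single-adapter circularization approach, and reads of each sequence aligned to *mt-TR* were counted. No treatment of the mice is given. The labels do not say whether a library came from 1 animal or from pooled RNA, so the p-values measure the spread between libraries, which may be technical. The counts cover *mt-TR* alone, so markers of lung could not be examined. The tissue is lung according to the labels, whereas the overall design entry names liver.

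*mt-TR* encodes the mitochondrial tRNA for arginine, which is cut from the long transcript of the mtDNA by removal of its flanking sequence and completed at the 3′ end by addition of CCA. Like other tRNA it folds into an acceptor stem, a D arm, an anticodon arm and a T arm, and pieces of tRNA, known as tRNA-derived fragments (tRF), arise by cleavage in or between these arms. A read that holds the whole added CCA must come from tRNA that had received it, and reads without it can come from mature or precursor molecules.

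The gene occupies bases 9808 to 9875 of chromosome M in GRCm38 (mm10), plus strand (ENSMUSG00000064361.1, gene type Mt_tRNA, without introns). The mature sequences of the 3 mtDNA types are shown because their differences are the subject of the comparison. Capitals mark the run of U (written T) followed by the run of A in the D arm.
mt-TR of C mtDNA: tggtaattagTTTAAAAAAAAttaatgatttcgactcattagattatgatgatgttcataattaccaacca
mt-TR of H mtDNA: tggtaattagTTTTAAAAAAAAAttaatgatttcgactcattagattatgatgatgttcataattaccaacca
mt-TR of F mtDNA: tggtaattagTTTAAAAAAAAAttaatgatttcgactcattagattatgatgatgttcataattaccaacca
They had 71, 73 and 72 nt with CCA, and everything 3′ of the run of A was the same in the 3 types. Positions are therefore given on the C sequence, with H and F counted back from their 3′ ends, so that a given position from the run of A onward is the same base in every library. On this scale the D arm covers positions 10 to 22 (4 base pairs, of which 1 is a G-U pair), the anticodon arm 24 to 40 (5 base pairs, with the anticodon UCG at 31 to 33), the T arm 45 to 60 (5 base pairs) and the CCA end 69 to 71.

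The 34 libraries held 1705 reads of 328 sequences. Of the libraries, 1 held no reads (CH female replicate 7) and 2 held fewer than 10 reads (CC female replicate 3 with 5 and CC male replicate 1 with 9), and these 3 were left out of the values per library. The remaining 10 CC libraries held 11 to 117 reads (median 81.5), the 9 CH libraries 10 to 119 (median 26) and the 12 CF libraries 23 to 90 (median 59). CH was thus the most thinly sampled genotype, and shares in its libraries are the least precise. Depth of the whole libraries is unknown, so the abundance of *mt-TR* fragments between genotypes was not compared.

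The sex, the batch and the series of the library names were not balanced. All 6 CC females were in batch 2 and all 4 CH females in batch 3, where CC was represented by 1 male with 11 reads. In batch 2 the 4 CH libraries were males whose names begin with RSB528, a name series that holds no CC library. Genotype and name series cannot be told apart for CH against CC in batch 2, and values that bear on this are given beside the result.

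Reads of the 3 genotypes had similar lengths. The mean length per library was 23.5 nt ± 0.834 (SD, n = 10) in CC, 23.8 nt ± 1.47 (SD, n = 9) in CH and 23.9 nt ± 1.04 (SD, n = 12) in CF. Library means ranged from 22.4 to 24.9 nt in CC, from 21.6 to 25.7 nt in CH and from 22.1 to 25.9 nt in CF, and the groups overlapped. The batch-adjusted difference was 0.44 nt for CH minus CC (95% interval -0.77 to 1.73, exact permutation test within batch, p = 0.510), 0.50 nt for CF minus CC (interval -0.38 to 1.38, exact permutation test, p = 0.246) and -0.07 nt for CH minus CF (interval -1.34 to 1.18, exact permutation test, p = 0.901). Differences of more than 2 nt in either direction lie outside these intervals.

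**Figure D1:**
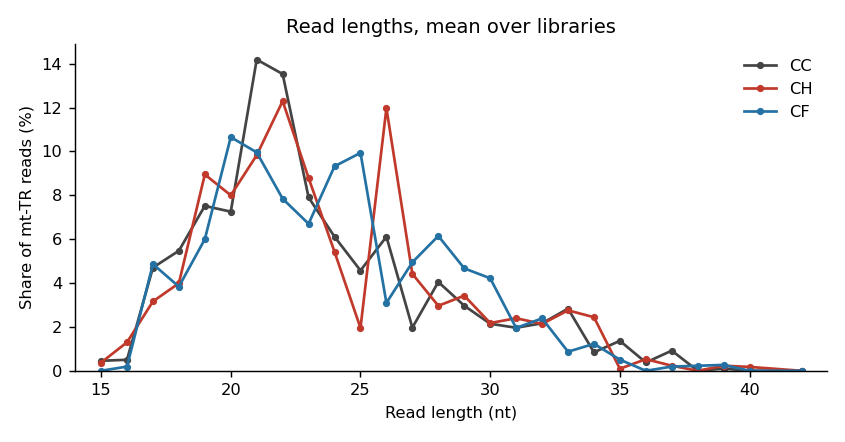
Share of the *mt-TR* reads of a library (y axis, percent) at each read length (x axis, nt), as means over 10 CC, 9 CH and 12 CF libraries. At 26 nt the mean share was 12.0% in CH, 6.11% in CC and 3.09% in CF, but the medians were 6.25%, 6.47% and 1.43%, since CH female replicate 6 alone reached 52.9% (9 of 17 reads).

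The batch-adjusted difference used throughout is the difference between genotypes within each batch, averaged over the batches with weights set by the number of libraries. The intervals were obtained by inverting the exact permutation test. In all, 7 measures were compared in 3 pairs of genotypes, and p-values were adjusted (Benjamini-Hochberg) over the 21 results. CC libraries enter both comparisons with CC, which are therefore not independent.

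Reads started and ended somewhat further 3′ in CH, by an amount that did not pass the test. The mean start position per library was 29.2 ± 4.01 (SD, n = 10) in CC, 32.6 ± 4.60 (SD, n = 9) in CH and 30.4 ± 2.61 (SD, n = 12) in CF. CH differed from CC by 4.66 positions (interval -0.24 to 9.29, exact permutation test, p = 0.0618, adjusted p = 0.216), by 6.29 in batch 2 and -0.76 in batch 3, and CF from CC by 0.98 positions (interval -2.10 to 4.05, exact permutation test, p = 0.510). The mean end position was 51.7 ± 4.19 (SD, n = 10) in CC, 55.5 ± 5.27 (SD, n = 9) in CH and 53.3 ± 2.87 (SD, n = 12) in CF, a difference of 5.09 positions for CH minus CC (interval -0.29 to 10.3, exact permutation test, p = 0.0618, adjusted p = 0.216) and of 1.48 for CF minus CC (interval -1.81 to 4.78, exact permutation test, p = 0.358). Between CH and CF the start differed by 2.76 and the end by 2.69 positions (exact permutation tests, p = 0.108 and 0.166).

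The 3 start positions with the highest share averaged over the genotypes lay in the 5′ strand of the anticodon stem. Position 24, the first base of the anticodon arm, began 109 of 652 reads in CC (16.7%), 43 of 369 in CH (11.7%) and 121 of 684 in CF (17.7%). In libraries with at least 10 reads its share had a median of 18.0% in CC (7.92% to 43.8%), 6.35% in CH (0% to 29.4%) and 11.5% in CF (3.03% to 38.9%), and the ranges overlapped. Positions 25 and 27 began 8.44% and 7.06% of the reads in CC, 7.59% each in CH and 7.16% and 7.02% in CF. Position 48, in the T stem, came second after 24 in CH (8.13%) and in CF (7.89%) and began 3.37% of the reads in CC. Reads starting at 24 were found in 11 of the 12 CC, 6 of the 10 CH and 12 of the 12 CF libraries, where CH female replicate 7 held no reads.

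The most used end was the last base of the CCA end, position 71, with 8.74% of the pooled reads in CC, 14.4% in CH and 12.6% in CF. In libraries with at least 10 reads, position 71 had a median share of 11.7% in CC, 7.56% in CH and 10.9% in CF. Averaged over the genotypes it was followed by position 70, with 18 reads in CC (2.76%), 41 in CH (11.1%) and 31 in CF (4.53%), and by position 45, the first base of the T arm, with 6.60%, 5.69% and 4.09%. The order differed by genotype, with position 45 second in CC, 70 in CH and 55 in CF (8.77%). Reads ending at 70 lack the terminal A of CCA. They were found in 7 of 12 CC, 7 of 10 CH and 8 of 12 CF libraries, where CH female replicate 7 held no reads.

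**Figure D2:**
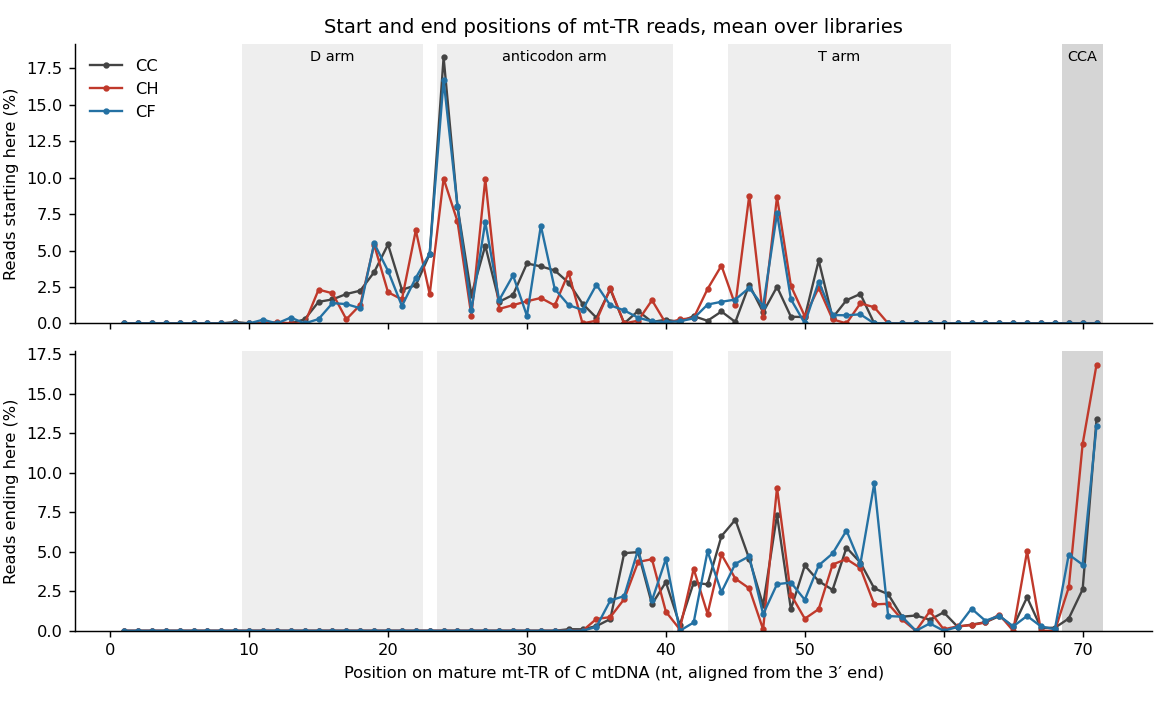
Share of the *mt-TR* reads of a library (y axes, percent) that start (upper panel) or end (lower panel) at each position of mature *mt-TR* (x axis, nt, on the C sequence), as means over libraries with at least 10 reads, and shading marks the D arm, anticodon arm, T arm and CCA end. Starts peak at position 24, lower in CH (9.94%) than in CC (18.3%) and CF (16.7%), and ends at 70 are most frequent in CH (11.8%, against 2.62% in CC and 4.18% in CF).

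The sequences below are the 5 with the highest mean share over the 3 genotypes, shown because they place the fragments on the arms. Capitals mark bases of the anticodon arm.
24-45, 22 nt: AATGATTTCGACTCATTagatt
46-71, 26 nt: atgatgatgttcataattaccaacca
48-70, 23 nt: gatgatgttcataattaccaacc
48-71, 24 nt: gatgatgttcataattaccaacca
27-48, 22 nt: GATTTCGACTCATTagattatg
The fragment 24-45 (chromosome M 9831 to 9852) holds the whole anticodon arm and the variable region, and made up 3.37% of the reads in CC (22 reads in 8 libraries), 2.98% in CH (11 in 3) and 2.63% in CF (18 in 7). The fragment 27-48 (chromosome M 9834 to 9855), which starts within the anticodon stem, had 10 reads in CC, 14 in CH and 7 in CF, and 10 of the 14 in CH came from CH female replicate 5. No single sequence was found in all libraries of a genotype, and the most widespread was in 8 libraries of CC, 7 of CF and 4 of CH.

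The other 3 are 3′ fragments that begin in the T stem. The fragment 46-71 had 21 reads in CH (5.69%), 11 in CC (1.69%) and 3 in CF (0.439%), but 19 of those in CH lay in CH female replicate 6 (9 of 17 reads) and CH male replicate 5 (10 of 63 reads). The fragments 48-70 and 48-71 share their start and differ only in the terminal A. The form without A had 17 reads in 4 CH libraries (4.61%), 8 in 4 CC libraries (1.23%) and 10 in 4 CF libraries (1.46%). The form with the whole CCA end had 2 reads in 1 CH library (0.542%), 11 in 6 CC libraries (1.69%) and 31 in 6 CF libraries (4.53%), of which 20 were in CF male replicates 5 and 6.

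To describe the molecule as a whole, each read was placed in 1 of 4 classes. Reads ending at position 71 are 3′ CCA reads. Of the others, D-arm reads start at position 23 or before, anticodon reads start in the anticodon arm (24 to 40), and T-arm reads start at 41 or after. The 4 shares of a library add up to 100%, so a rise in 1 class has to be met by a fall in others.

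The anticodon class was the largest class by mean share in each genotype and its share was lower in CH than in CC. It made up 45.3% to 72.7% of the reads of a CC library (median 58.0%), 23.8% to 66.7% in CH (median 40%) and 18.2% to 85.4% in CF (median 56.7%). Of the 9 CH libraries, 5 lay below every CC library and 4, from 46.0% to 66.7%, lay within the range of CC. The mean was 56.5% ± 8.40 (SD, n = 10) in CC, 41.6% ± 15.8 (SD, n = 9) in CH and 54.5% ± 17.2 (SD, n = 12) in CF. The difference of CH minus CC was -21.1 percentage points (interval -33.3 to -9.32, exact permutation test within batch, p = 0.000932, adjusted p = 0.00979), with -19.7 in batch 2 and -25.9 in batch 3. For CF minus CC it was -1.71 points (interval -14.7 to 11.2, exact permutation test, p = 0.786), with 2.21 in batch 2 and -25.2 in batch 3. For CH minus CF it was -13.3 points (interval -30.1 to 3.51, exact permutation test, p = 0.111, adjusted p = 0.291), with -21.9 in batch 2 and -0.67 in batch 3. The differences from CC in batch 3 rest on its 1 CC library.

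T-arm reads, the smallest class by mean share in CC and CF, were more frequent in CH than in CC. In batch 2 their share was 13.4%, 33.3%, 29.2% and 20.0% in CH male replicates 1 to 4, on 119, 42, 48 and 10 reads, and 0% to 13.3% in the 9 CC libraries (median 2.56%). The lowest CH library lay next to the highest CC library, and the 95% Wilson intervals of the 4 shares, which cover counting error only, ran from 8.45% to 20.7%, 21.0% to 48.4%, 18.2% to 43.2% and 5.67% to 50.98%. In batch 3 the share was 0% in CH female replicate 6 and 14.3% to 21.7% in the other 4 CH libraries, against 0% in the only CC library, where 0 of 11 reads leaves the share poorly bounded. CF libraries held 0% to 25.4% (median 8.35%), between the other genotypes and overlapping with both.

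The mean T-arm share was 3.71% ± 4.74 (SD, n = 10) in CC, 18.0% ± 9.73 (SD, n = 9) in CH and 9.55% ± 8.46 (SD, n = 12) in CF. CH exceeded CC by 18.3 percentage points (interval 11.0 to 25.6, exact permutation test within batch, p = 0.000466, adjusted p = 0.00979), by 19.9 in batch 2 and 13.1 in batch 3. CF minus CC was 6.21 points (interval -0.33 to 12.8, exact permutation test, p = 0.0615, adjusted p = 0.216). CH minus CF was 10.3 points (interval 1.85 to 18.8, exact permutation test, p = 0.0201), which did not pass after adjustment (adjusted p = 0.140). It was 14.0 in batch 2 and 4.91 in batch 3.

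**Figure D3:**
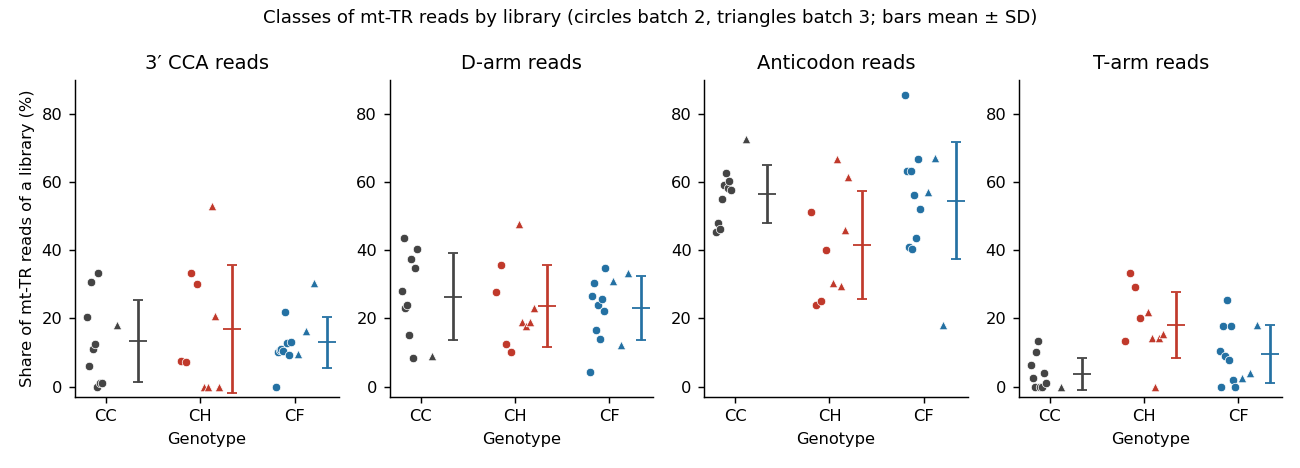
Share of the *mt-TR* reads of each library (y axis, percent) in the 4 classes for CC (n = 10), CH (n = 9) and CF (n = 12), with circles for batch 2, triangles for batch 3, and the mean ± SD beside the points. T-arm shares reach 13.3% in CC, 33.3% in CH and 25.4% in CF, and 6 of the 9 CH libraries lie at or under 46.0% anticodon reads.

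The T-arm class consisted largely of 3′ fragments that stop within the CCA end. Of the 67 T-arm reads in CH, 53 ended at position 69 or 70, as did 24 of 37 in CC and 57 of 68 in CF. Counted over all reads, those ending at 69 or 70 made up 3.99% in CC (26 of 652), 14.9% in CH (55 of 369) and 9.36% in CF (64 of 684). Per library they made up a mean of 3.4% ± 3.48 (SD, n = 10) in CC, 14.6% ± 9.44 (SD, n = 9) in CH and 9.01% ± 8.05 (SD, n = 12) in CF. Such reads were present in each of the 6 CH males (10.9% to 25% of the reads), in 1 of the 4 CH females and in 4 of the 6 libraries of each sex of CC. These counts include CH female replicate 7, which held no reads. They also include CC female replicate 3 with 5 reads and CC male replicate 1 with 9. With reads ending at 69 or 70 taken out of the class, a setting chosen after the values were seen, the T-arm share of CH exceeded that of CC by 3.03 points and did not pass the test (exact permutation test, p = 0.164, adjusted p = 0.397), while the anticodon share still differed by -20.6 points (exact permutation test, p = 0.000932, adjusted p = 0.0196).

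Among reads that ended at 69, 70 or 71, those lacking 1 or 2 bases of CCA made up 31.3% in CC (26 of 83), 50.9% in CH (55 of 108) and 42.7% in CF (64 of 150), in pooled reads and without a test. In CH 41 reads ended at 70 and 14 at 69, and in CF the counts were 31 and 33. How these bases came to be missing was not tested. By sex the fraction lacking bases of CCA was 27.9% in CC females and 46.7% in CC males (7 of 15 reads), 35.7% in CH females (5 of 14 reads) and 53.2% in CH males, and 50.7% in CF females and 35.8% in CF males. The value of the CH females joins replicate 4, where all 5 reads ending at 69 to 71 lacked bases of CCA, with replicate 6, where all 9 held the whole CCA. No direction between the sexes can therefore be read in CH. The part of sex in the difference of this fraction between CH and CC was not tested.

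**Figure D4:**
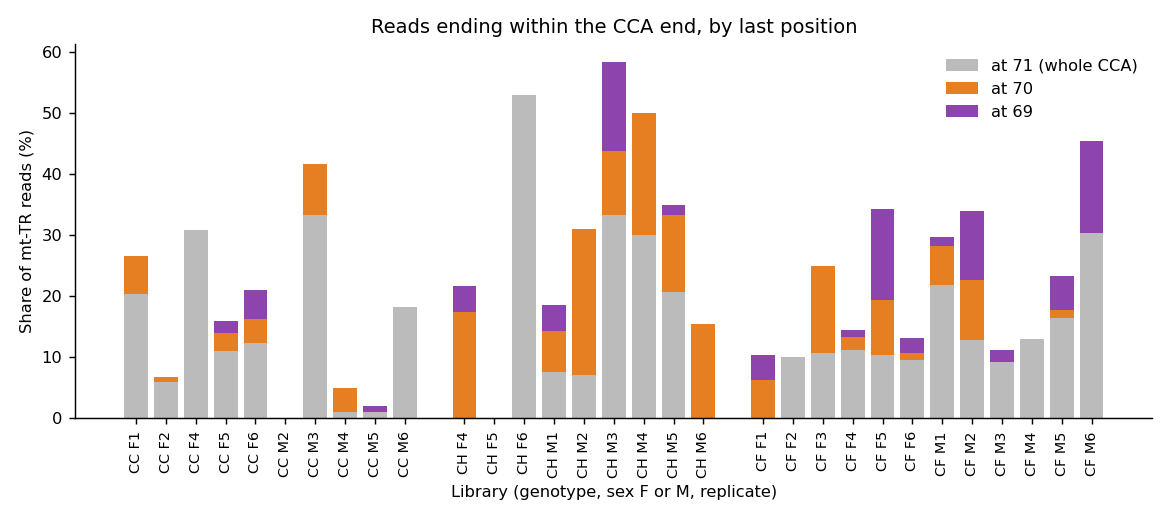
Share of the *mt-TR* reads of each library (y axis, percent) that end at position 71, 70 or 69 (stacked bars), by genotype, sex and replicate (x axis), for libraries with at least 10 reads. Bars of reads ending at 69 or 70 add up to at most 8.57% in CC, and reach 25% in CH and 23.9% in CF.

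The difference between CH and CC was carried by few libraries in each stratum. When sex and batch were both held fixed, 6 CH and 5 CC males remained and the differences were 20.8 points for T-arm reads and -23.2 points for anticodon reads (exact permutation tests, p = 0.00476, the smallest this layout can give, and 0.00952), but their adjusted p was 0.1 for both. Within library name series CH could be compared with the 1 CC library of batch 3 only, where the differences were 13.1 and -25.9 points and no p under 0.167 was possible. Where another genotype and sex had libraries of RSB528 and of a second series in batch 2, those of RSB528 held T-arm shares of 7.81% in 1 CF male (against 0% to 17.7% in 3 CF males of RSB526) and of 8.38% and 18.2% in 2 HH females (against 0% and 16.0% in 2 of RSB527). The 3 CH females of batch 1, which has no CC library and was not part of the comparison, held 18.8% to 23.0% T-arm reads and 11.0% to 30.2% anticodon reads. In that batch 3 HC females, with C mtDNA on the nuclear genome of C3H/HeN, held 10.6% to 15.8% and 41.6% to 51.9%.

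The 3′ CCA and D-arm classes did not differ detectably between genotypes. Reads ending with the whole CCA made up 0% to 33.3% of a CC library (median 11.7%), 0% to 52.9% in CH (median 7.56%) and 0% to 30.3% in CF (median 10.9%). The highest of them, CH female replicate 6, held 9 such reads among 17, all of them the fragment 46-71. The difference was 4.31 points for CH minus CC (interval -13.5 to 21.4, exact permutation test, p = 0.591), -1.48 for CF minus CC (interval -10.4 to 7.34, exact permutation test, p = 0.730) and 3.42 for CH minus CF (interval -9.84 to 17.3, exact permutation test, p = 0.621). These intervals are wider than the mean share itself in CH against CC, so a large change would have gone unseen. With reads ending at 69 or 70 counted in the class as well, CH minus CC was 19.1 points (exact permutation test, p = 0.0455, adjusted p = 0.324) and CH minus CF 10.5 points (exact permutation test, p = 0.170, adjusted p = 0.397).

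D-arm reads, which start beside or within the stretch that differs between the mtDNA types, made up a mean of 26.4% ± 12.7 (SD, n = 10) in CC, 23.6% ± 11.9 (SD, n = 9) in CH and 22.9% ± 9.41 (SD, n = 12) in CF. Libraries ranged from 8.33% to 43.6% in CC, 10.0% to 47.8% in CH and 4.17% to 34.8% in CF. The differences were -1.50 points for CH minus CC (interval -15.4 to 13.0, exact permutation test, p = 0.821), -3.01 for CF minus CC (interval -13.2 to 7.30, exact permutation test, p = 0.544) and -0.43 for CH minus CF (interval -10.9 to 10.2, exact permutation test, p = 0.932). The median start of D-arm reads was position 20 in each genotype, within the run of A.

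**Figure D5:**
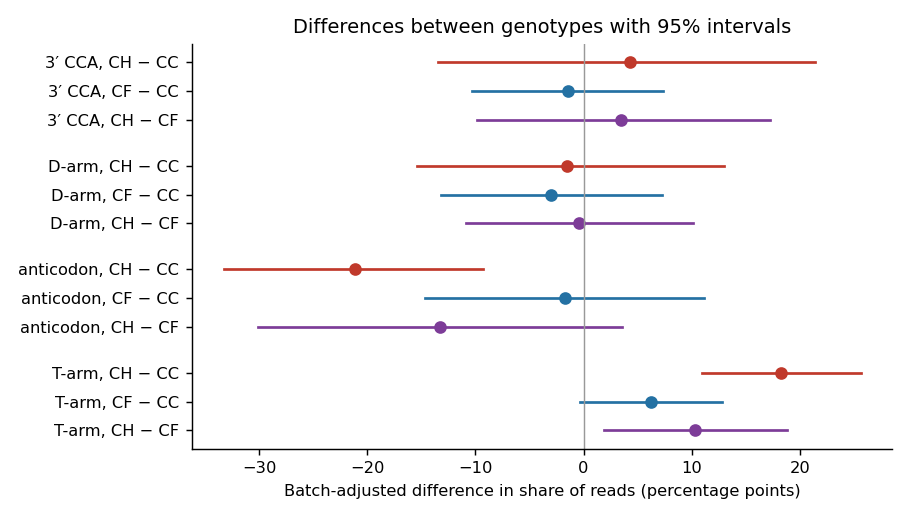
Batch-adjusted difference between genotypes in the share of reads (x axis, percentage points; points) with the 95% interval from inversion of the exact permutation test (lines), for the 4 classes and 3 pairs of genotypes (y axis). The intervals of anticodon and T-arm reads for CH minus CC (-33.3 to -9.32 and 11.0 to 25.6) and of T-arm reads for CH minus CF (1.85 to 18.8) leave out 0.

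Reads that reach across the run of A, and so carry the mtDNA type in their sequence, were rare. Of the 14 sequences in the table that do not occur in all 3 types, 5 were counted in these libraries, with 6 reads in all. They are shown because they are the reads in which the mtDNA type can be read directly. Capitals mark the run.
CC, 1 read, 25 nt: agTTTAAAAAAAAttaatgatttcg
CH, 1 read, 24 nt: TAAAAAAAAAttaatgatttcgac
CF, 1 read, 28 nt: TTAAAAAAAAAttaatgatttcgactca
CF, 2 reads, 26 nt: AAAAAAAAAttaatgatttcgactca
CF, 1 read, 25 nt: AAAAAAAAAttaatgatttcgactc
The read of CC held 8 A and those of CH and CF held 9 A, which occurs in both H and F mtDNA, and none held the run of U of H mtDNA whole. The methods describe alignment of each sample to the reference of its own mtDNA type, so these reads were not used to check the labels. The fragments start at position 9 at the earliest, and bases before it were in 0 of the 1705 reads. By counting error alone this allows a share of up to 0.176% (3 reads). That bound holds for the reads and not for the RNA of the tissue. The paper describes the RNA of this sequencing as untreated, and states that modified bases can impede reverse transcription. It lists fragments that start at the first base in pretreated RNA of female liver.

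Sequences found in all 3 genotypes numbered 71. They were 31.1% of the 228 sequences of CC, 53.8% of the 132 of CH and 37.0% of the 192 of CF, and held 47.9%, 69.6% and 56.4% of the reads. These percentages rest on 652, 369 and 684 reads, an unequal depth, so they were not compared between genotypes. Of the sequences, 92 in CC, 59 in CH and 77 in CF rested on 1 read. Sequences that were counted in 1 genotype only can therefore not be taken as particular to it.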

How the data were processed

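The table the authors deposited holds raw counts per lung library, 1 row for each distinct sequence that aligned to mature *mt-TR*. The methods describe extraction of molecular identifiers and deduplication (UMI-tools 1.1.6), trimming to a set length range (cutadapt 5.0) and Bowtie 1.3.1 alignment without gaps or mismatches to *mt-TR* of the library's own mtDNA type, with removal of sequences that match elsewhere in mm10, and the submitters' notes also name FastQC 0.12.1 and BWA 0.7.18. It is not stated which of these steps were applied to the lung libraries, and 9 reads of 15 nt were counted here. Intervals of shares cover counting error only.

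Genotype, sex, replicate, batch and library name came from the labels. Mature sequences were assembled from the aligned sequences of the study's supplementary material, and that of C was checked against GENCODE M21. The fold was laid on the C sequence and the stems checked for base pairs. Libraries with at least 10 reads were used. Library values were compared with two-sided exact permutation tests within batch, Benjamini-Hochberg adjusted over 21 results at 0.05, and the code was tested on simulated shares. No test was run on single sequences. Sequences, starts (3) and ends (3) were named by mean pooled share (5 sequences), together with those not in all mtDNA types. Members, classes and lists were chosen with earlier results of these data known. No 2 libraries with reads had identical counts (0 pairs). Python 3.11.15, numpy 2.4.6, pandas 2.3.3 and matplotlib 3.10.9 were used.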

Additional observations from a re-analysis of the deposited data

Results flagged for a closer look

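Within each genotype and sex, libraries that stood apart from the rest of their group by Dixon's criterion were looked for over 41 pairings of measure and group. Chance alone gives about 2.05, and 2 were found. CF female replicate 1 had 48 reads and a 3′ CCA share of 0%, whereas the next lowest CF female stood at 9.52%. That library held 5 reads ending at position 69 or 70. The share of T-arm reads was 3.96% in CC male replicate 4 (101 reads), against at most 1.01% in the other CC males with at least 10 reads. CC male replicate 1, left out with 9 reads, stood at 11.1%.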

How the results depend on the processing

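With at least 1 read per library the 21 results kept their direction and their side of the threshold. The excess of T-arm reads and the deficit of anticodon reads in CH against CC kept their direction in each alternative. Their adjusted p stayed under 0.05 in only 3 of 10 alternatives each. Both missed 0.05 with at least 20 reads, with pooled reads and with classes set by the midpoint. They also missed it with strata of sex and batch, of name series and of the replicate block given below. The values were 19.1 and -20.8 points with at least 20 reads, 15.0 and -17.4 with reads pooled within genotype and batch, which weights libraries by their reads (same libraries and permutations, exact permutation test, adjusted p = 0.0783 and 0.12), 20.8 and -23.2 with strata of sex and batch, 13.1 and -25.9 with strata of library name series, and 15.4 and -19.8 with classes set by the midpoint of the read. In batch 2 alone the anticodon difference was -19.7 (adjusted p = 0.0587, exact permutation test) and T-arm reads still passed. With reads ending at 69 or 70 taken out, chosen after seeing the data, T-arm reads differed by 3.03. With distinct sequences in place of reads both passed (13.7 and -19.7 points). Strata of sex and batch and of name series left 210 and 6 permutations, so an adjusted p under 0.05 was hardly or not possible there. With at least 20 reads CH was compared with CC in batch 2 only, since the CC library of batch 3 held 11 reads. That setting left fewer permutations than strata of sex and batch, so its misses do not show a dependence on depth. Leaving out 1 library each, the T-arm difference ran from 15.8 to 20.6 and passed in all 19 fits, and the anticodon difference ran from -25.3 to -18.6 and missed only without CC male replicate 6 (exact permutation test, adjusted p = 0.0587), the 1 CC library of batch 3.

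With a replicate block (strata of sex, batch and replicate number, 4 pairs of CH and CC), T-arm and anticodon reads differed by 23.5 and -25.9 points. The exact permutation p was 0.125, the smallest that a two-sided test of 4 pairs can give. The length of CH minus CF was 0.0208 nt. Same-numbered libraries share only a number. Over 3 pairs of CH and CC the correlation of their deviations over the measures ran from -0.347 to 0.882, so the numbers were not taken to pair libraries.

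Directions that changed all belonged to differences that did not pass the test. With at least 20 reads, 3′ CCA was 2.43 for CF minus CC and -3.06 for CH minus CF, length -0.39 nt for CH minus CC, anticodon 2.70 for CF minus CC and D-arm 2.58 for CH minus CF. With pooled reads, 3′ CCA was 1.99 for CF minus CC, length -0.0935 nt for CH minus CC and D-arm 2.46 for CH minus CF. Within name series, 3′ CCA was -3.47 for CH minus CC and -3.54 for CH minus CF, D-arm 16.2 and 2.07, mean start -0.76 for CH minus CC and mean end -0.0486 for CH minus CF. By midpoint, D-arm was 0.0761 for CH minus CC and 0.13 for CH minus CF. With distinct sequences, D-arm was 3.79 and 2.40 and length 0.11 nt for CH minus CF. In batch 2 alone anticodon was 2.21 for CF minus CC, and with ends at 69 to 71 counted as CCA that class was 4.36 for CF minus CC, and it grew to 19.1 for CH minus CC and 10.5 for CH minus CF without passing the test. The causes were not tested. Without 1 library each, 3′ CCA of CF minus CC ran from -2.83 to 0.71, anticodon of CF minus CC from -4.95 to 2.21, length of CH minus CF from -0.26 to 0.20 nt, and D-arm from -6.84 to 2.19 (CH minus CC) and from -2.999 to 1.68 (CH minus CF). T-arm reads of CH minus CF ran from 8.17 to 12.6 and passed (exact permutation test, lowest adjusted p = 0.0436) without CH female replicate 6 or CF male replicate 6.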

Other observations

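The following was chosen after the values were seen and is described without a test. Reads ending at position 55, the last base of the T loop, were present in all 12 CF libraries, at 1.11% to 15.6% of the reads (median 9.96%). In CC their share was 0% to 8.91% (median 2.06%, 10 libraries), and in CH it was 0% in 7 of the 9 libraries and 5.04% and 10.0% in CH male replicates 1 and 4. In pooled reads they numbered 60 in CF, 27 in CC and 7 in CH. All of them started in the anticodon arm. The most frequent sequence was the 25-nt fragment 31-55 (chromosome M 9838 to 9862), which starts at the first base of the anticodon, with 22 reads in 7 CF libraries, 4 in 1 CC library and 1 in 1 CH library. Capitals mark bases of the anticodon arm.
31-55, 25 nt: TCGACTCATTagattatgatgatgt
Other libraries of the series differ in their nuclear genome as well. In FF, which has F mtDNA on the nuclear genome of FVB/NJ, the mean share of reads ending at 55 was 1.45% (0% to 6.06%, 8 libraries), and in HC, with C mtDNA on the nuclear genome of C3H/HeN, it was 7.27% (0% to 24.2%, 11 libraries). Whether the share is tied to the mtDNA was not tested.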
